A study of Macaca mulatta with 12 samples.

Results

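The cytosolic ribosomal protein genes encode the proteins of the ribosomes that work outside mitochondria. They were chosen by symbol from a table of 16745 macaque genes. The symbols were RPL or RPS followed by a number, with A, X or L allowed after it. For RPL a further digit could follow, as in RPL22L1 and RPL26L1. The stalk genes RPLP0 to RPLP2 and RPSA were included, and the RPS6K kinases were left out. The rule found 45 genes, of which 20 encode proteins of the large subunit, 17 proteins of the small subunit, 2 proteins of the stalk, and 6 are second copies of another ribosomal protein gene. Tests were possible for 31 of them, and each of the other 14 had at most 10 reads in any library. The rule itself reads the symbol alone.

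A ribosome has a small subunit, which reads the messenger RNA, and a large subunit, which joins amino acids. The stalk is a protein arm of the large subunit, built on RPLP0 with RPLP1 and RPLP2, where translation factors dock. Most of these proteins are made in equal numbers, and their messenger RNAs carry a run of pyrimidines at the 5′ end (the TOP motif), through which mTOR signalling sets how much they are translated. The second copies are related genes that can stand in for a standard protein: RPS27L for RPS27, RPL22L1 for RPL22, RPL26L1 for RPL26, RPL39L for RPL39, RPL10L for RPL10 and RPL3L for RPL3. RPS27L is a known p53 target, and RPL3L is known from heart and skeletal muscle.

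RNA came from rhesus macaque cells labelled as cardiomyocytes derived from induced pluripotent stem cells, grown flat as a monolayer or cast as engineered heart tissue (EHT), a small tissue grown in 3 dimensions. Both cultures were kept in RPMI medium with B27 containing insulin. Each was either left in normal oxygen (normoxia) or sealed in an anaerobic pouch for 24 hours, with 24 more hours counted from a change of medium (hypoxia). The 4 groups, monolayer normoxia, monolayer hypoxia, EHT normoxia and EHT hypoxia, had 3 libraries each. No such medium change is recorded for normoxia, so oxygen and the change of medium cannot be told apart. The labels do not say whether libraries of a group came from separate differentiations or how many lines were used, so p-values cover only the spread between these libraries. These are bulk samples, in which fewer cells of a type and less RNA per cell cannot be told apart.

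The 12 libraries held 4154346 to 11298841 reads. Differences are given on a log2 scale after each library was centred on its median over 12084 tested genes, so a centred difference is relative to the median gene. The same fit was run on log2 reads of a gene per 1000000 reads of the library (CPM), because the scalings differ: by CPM, the difference of the median gene (hypoxia minus normoxia) was -0.73 in the monolayer and -0.19 in EHT, and its difference between the cultures (EHT minus monolayer) was -0.38 in normoxia and 0.06 in hypoxia. Fibronectin (FN1) took 2.24% ± 1.05 of reads (SD, n = 3) in monolayer normoxia, 10.4% ± 0.529 in monolayer hypoxia, 6.55% ± 2.13 in EHT normoxia and 5.53% ± 1.16 in EHT hypoxia. The 12 cardiomyocyte markers (TNNT2, MYH6, ACTN2 and others) together took 0.227% ± 0.163, 0.583% ± 0.0289, 0.0099% ± 0.00815 and 0.0508% ± 0.0425 of reads in the same order. They ranged from 0.0502% to 0.372% within monolayer normoxia and from 0.00299% to 0.0842% within EHT hypoxia. The EHT libraries thus held few reads of the cell type the label names. The 8 fibroblast markers found took 4.62% to 6.13% as group means, and 3.42% to 7.17% over single libraries. How reads that match several places, such as processed pseudogenes of ribosomal protein genes, were counted is not given in the sources used here.

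Together the 45 genes took 2.26%, 3.05% and 3.08% of reads in monolayer normoxia and 2.74%, 3.00% and 2.69% in monolayer hypoxia. In EHT they took 2.00%, 1.85% and 2.29% in normoxia and 2.91%, 2.78% and 2.28% in hypoxia. The group means were 2.80% ± 0.469, 2.81% ± 0.164, 2.05% ± 0.221 and 2.66% ± 0.334 (SD, n = 3 each). Normoxic EHT thus had the lowest mean share, although its highest library overlapped with the lowest of the monolayer normoxia and EHT hypoxia groups. Monolayer normoxia replicate 1 was low against its group, as was EHT hypoxia replicate 3. Centred on the median gene instead, the median of the 31 tested genes was 4.20, 4.74 and 4.82 log2 units in monolayer normoxia and 5.16, 5.27 and 5.06 in monolayer hypoxia. In EHT it was 4.58, 4.41 and 4.44 in normoxia and 5.20, 5.24 and 4.85 in hypoxia, so on this scale the hypoxic libraries of each culture lay above all its normoxic ones.

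**Figure D1:**
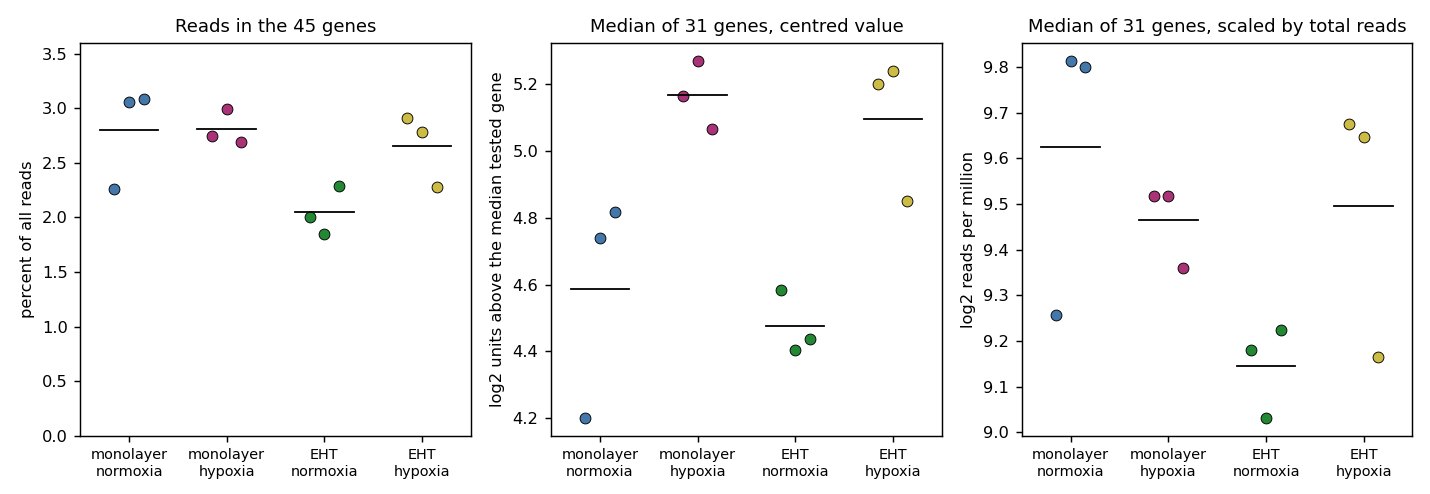
Level of the ribosomal protein genes in each library, as percent of all reads (left, 45 genes), as the median of 31 tested genes in log2 units above the median tested gene (middle), and as their median in log2 CPM (right). Points are libraries, bars are group means of 3; on the centred scale the hypoxic libraries of both cultures lie above the normoxic ones (5.06 to 5.27 against 4.20 to 4.82 in the monolayer), while the share of reads in the monolayer is 2.80% and 2.81%.

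Among the 14 untested genes were RPL11, RPL23, RPL28 and RPL30 of the large subunit, RPS25 and RPS27A of the small subunit, and the second copies RPL3L, RPL10L and RPL39L. Of the 14, 5 had 0 reads in every library, among them RPL23, RPL28 and RPS27A. RPL11, which with RPL5 binds 5S ribosomal RNA and MDM2, had 2 reads in all libraries together, and RPL30 had 7. Every growing cell uses these genes, so values at or near 0 here do not measure their level, and no fold is given for them. Among the second copies, RPL3L had 1 read, RPL10L 7 and RPL39L 34 reads over the 12 libraries. The symbols RPLP2, RPS6, RPL5, RPL13A, RPL3 and RPL10 were not among the 16745 genes. The shares of reads and the subunit ratio given here thus cover only part of the standard set. Of the 31 tested genes, 4 rested on few reads: RPL14 had 65 in all libraries together, RPL34 had 563, RPS16 had 585 and RPL37 had 901. These 4 are standard genes too, so their values may not measure their level either, though they stay in the counts. The counts below are over the 31 tested genes, not all 45.

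In the monolayer, 22 of the 31 tested genes rose in hypoxia relative to the median gene and 0 fell. Over all tested genes 27.8% were called higher and 18.6% lower, 46.5% in all. The median difference of the 31 was 0.61, against 0.07 for all tested genes. Of the 17 tested RPL genes 12 rose, with a median of 0.62, and of the 14 tested RPS genes and RPSA 10 rose, with a median of 0.60. All the tested genes but RPL34 had a positive difference. The range between quartiles was 0.17 for the 31 genes and 1.17 for all tested genes, so most of these genes differed by nearly the same amount. The groups did not overlap, with hypoxia higher, for 25 of the 31 genes and lower for 0, against 35.2% and 26.8% of all genes. By limma at an unadjusted p under 0.05, 24 genes were higher and 0 lower, against 31.1% and 22.3% of all genes. The fit with voom weights called 20 higher and 0 lower, where it called 26.1% and 25.3% of all genes.

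This difference depended on the scaling. By CPM, 4 genes rose and 0 fell, where 8.81% of all genes were called higher and 47.6% lower. The median of the 31 genes was then -0.12 against -0.73 for all genes, and the range between quartiles stayed at 0.17 against 1.40. Under quantile normalization 4 were called higher and 2 lower, with a median of -0.22. On the deposited values without centring 0 were called higher and 1 lower, with a median of 0.06 against -0.475 for all genes. The shares of all genes called under these settings are not given here. Without monolayer hypoxia replicate 2 the centred count of genes that rose was 11, and without monolayer normoxia replicate 1 it was 12. It was 27 with monolayer normoxia replicate 3 and EHT hypoxia replicate 3 both left out. When centred and by CPM, the median of the 31 genes was above that of all genes. Under quantile normalization it was negative, and the median of all genes there is not given. The share of all reads differed between the groups by less than the spread between libraries.

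The 4 genes that rose under both scalings were RPS27L, RPL22L1, RPS19 and RPSA. RPS27L had 137, 157 and 125 CPM in monolayer normoxia and 243, 275 and 260 in hypoxia. The lowest hypoxic library was thus well above the highest normoxic one. Its centred difference was 1.63 ± 0.148 (SE; adjusted p = 4.19e-06), and 0.90 by CPM (adjusted p = 0.000169). RPL22L1 had 130, 152 and 132 CPM in normoxia and 221, 246 and 226 in hypoxia, again without overlap. It rose by 1.47 ± 0.213 centred (adjusted p = 0.000124) and by 0.75 by CPM (adjusted p = 0.0149). Both are second copies.

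RPS19, a small-subunit protein whose loss causes Diamond-Blackfan anaemia, had 865, 1127 and 979 CPM in normoxia and 1412, 1465 and 1308 in hypoxia. It rose by 1.24 ± 0.142 centred (adjusted p = 2.16e-05) and by 0.50 by CPM (adjusted p = 0.00779). RPSA, a small-subunit protein also known as the laminin receptor, had 1737, 2163 and 2167 in normoxia and 2557, 3032 and 2793 in hypoxia. Its difference was 1.21 ± 0.161 centred (adjusted p = 6.72e-05) and 0.47 by CPM (adjusted p = 0.0223). Under quantile normalization the differences of RPS19 (0.21, adjusted p = 0.24) and RPSA (0.20, adjusted p = 0.321) did not pass the threshold. On the deposited values without centring, none of the 4 passed it, with adjusted p from 0.0848 for RPS27L to 0.357 for RPSA.

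For the other named genes the centred call rested on the scaling. RPLP0, the base of the stalk and a common reference gene, rose by 0.97 ± 0.18 centred (adjusted p = 0.00081), and its difference was 0.23 by CPM (adjusted p = 0.253) and -0.28 under quantile normalization. Its libraries held 2487, 3175 and 3283 CPM in normoxia and 3449, 3848 and 3153 in hypoxia, which overlap, whereas its centred groups were apart. RPLP1, its partner, rose by 0.65 ± 0.168 centred (adjusted p = 0.00689), while its difference was -0.09 by CPM and -0.29 under quantile normalization. RPL7, of the large subunit, rose by 0.80 ± 0.153 centred (adjusted p = 0.000988), against 0.06 by CPM and -0.37 under quantile normalization. RPS24, which takes part in processing the small-subunit RNA, was called higher (1.50 ± 0.545, adjusted p = 0.0385) although its groups overlapped. It had 92.5, 71.4 and 82.5 CPM in normoxia and 48.0, 319 and 176 in hypoxia, so 1 hypoxic library lay below all normoxic ones.

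**Figure D2:**
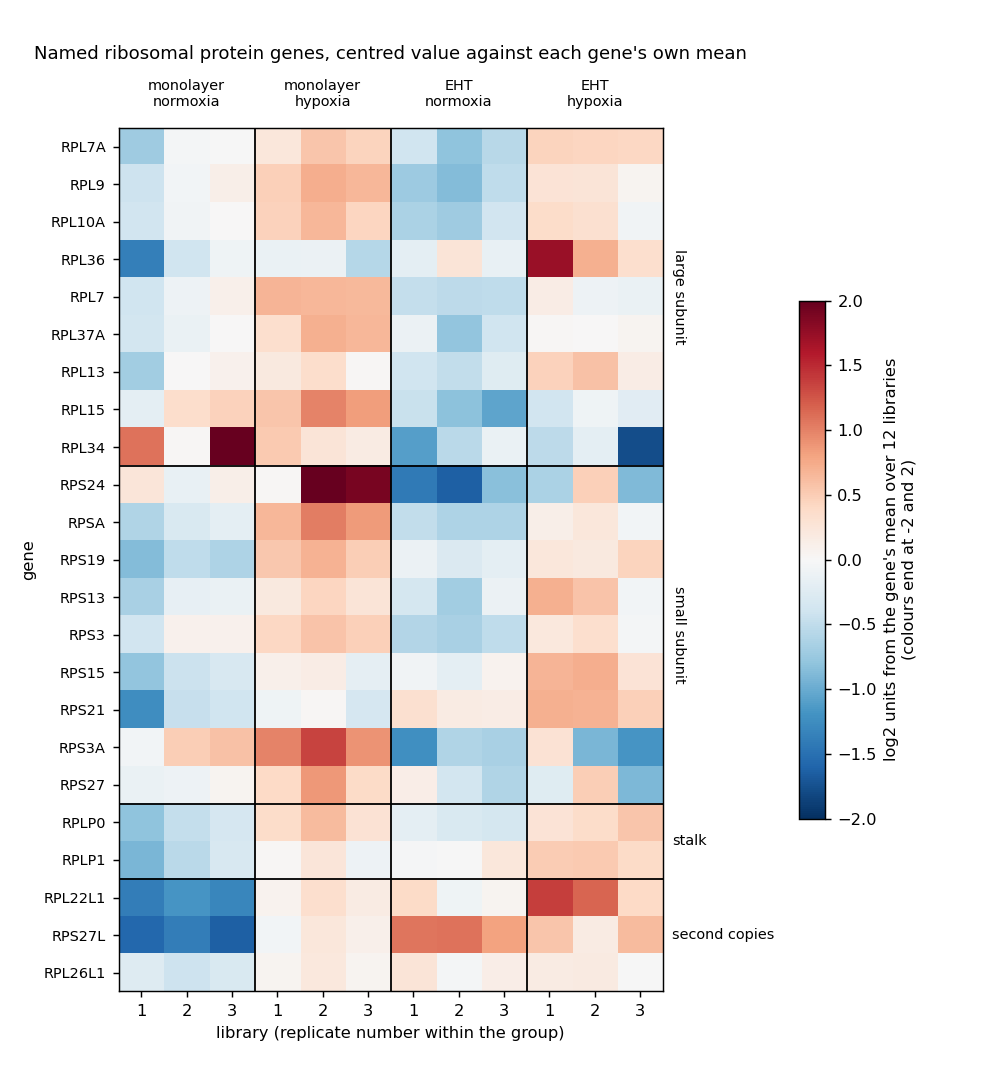
Centred value of 23 of the 31 tested genes, those named in the text by a fixed rule and RPS24, in each of 12 libraries, as log2 units from the gene's own mean over the libraries (red above, blue below; colours end at -2 and 2). Rows are genes grouped by role and columns are libraries by group; most rows are red in both hypoxia groups, while RPS27L is bluest in monolayer normoxia and reddest in EHT normoxia, and RPL34 and RPS24 vary within groups.

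In EHT, 16 of the 31 tested genes rose in hypoxia relative to the median gene and 1, RPS27L, fell. The background was 19.5% called higher and 16.0% called lower, 35.5% in all. The median difference was 0.55 for the 31 genes and 0.03 for all tested genes, and the range between quartiles was 0.36 against 0.95. Of the 17 RPL genes 9 rose and 0 fell, and of the 14 RPS genes and RPSA 7 rose and 1 fell. Hypoxia was higher without overlap for 23 genes and lower for 1, against 23.6% and 19.9% of all genes. With voom weights 15 were called higher and 1 lower, against 17.9% and 16.7%. Without EHT normoxia replicate 2 the count of genes that rose was 9, and the replicate number as a block, reported with the alternatives, left 14. With monolayer normoxia replicate 3 and EHT hypoxia replicate 3 both left out it was 19.

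By CPM, 4 genes rose in hypoxic EHT and 1 fell, where 13.6% of all genes were called higher and 24.7% lower. The median of the 31 was 0.29, against -0.19 for all genes. The 4 genes were RPL7A, RPL9, RPL10A and RPS3. Under quantile normalization 5 were called higher and 1 lower. On the deposited values without centring 0 were called in either direction, with a median of 0.70 against 0.18 for all genes. The shares of all genes called under these settings are not given here. Unlike in the monolayer, the median kept its sign under each scaling tried.

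RPL7A, of the large subunit, had 580, 447 and 598 CPM in EHT normoxia and 960, 905 and 841 in EHT hypoxia, with no overlap. It rose by 1.01 ± 0.186 centred (adjusted p = 0.00118) and by 0.75 by CPM (adjusted p = 0.00672). RPL9 had 1088, 1015 and 1450 in normoxia and 2004, 1899 and 1550 in hypoxia, and rose by 0.90 ± 0.171 (adjusted p = 0.00145; 0.63 by CPM). RPL10A, which forms the mobile stalk beside the tRNA exit site, had 1016, 988 and 1385 in normoxia and 1879, 1728 and 1241 in hypoxia. By CPM the third hypoxic library lay within the normoxic range, while the centred groups were apart (0.78 ± 0.171, adjusted p = 0.00365). RPL13 (0.78 ± 0.207, adjusted p = 0.0111) and RPL22L1 (0.87 ± 0.213, adjusted p = 0.00686) rose when centred and were at an adjusted p of 0.084 and 0.0544 by CPM. The centred call of RPS13 (0.80 ± 0.218, adjusted p = 0.0122) ended without EHT normoxia replicate 2 (0.65, adjusted p = 0.0601) and without EHT hypoxia replicate 1 (0.65, adjusted p = 0.0528).

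RPLP0 (0.69 ± 0.18, adjusted p = 0.0104), RPSA (0.67 ± 0.161, adjusted p = 0.00607), RPS19 (0.49 ± 0.142, adjusted p = 0.0168) and RPL7 (0.47 ± 0.153, adjusted p = 0.0296) rose when centred. By CPM their adjusted p ran from 0.0611 for RPSA to 0.346 for RPL7. The RPS19 call ended without EHT normoxia replicate 2 (adjusted p = 0.067). The RPL7 call ended without any 1 of 5 EHT libraries, EHT hypoxia replicate 3 being the exception, with adjusted p from 0.0546 to 0.106, and also with the replicate block (0.0524) and in a fit to the EHT libraries alone (0.0548). RPLP1 was at 0.40 (adjusted p = 0.0786). It passed with array weights (0.0127), without monolayer normoxia replicate 1 (0.0416), and with monolayer normoxia replicate 3 and EHT hypoxia replicate 3 both left out (0.0396).

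The hypoxia differences of the cultures shared no library, but their calls shared an estimate of the spread over all libraries and are not independent. Of the 22 genes that rose in the monolayer 15 also rose in EHT, which is 68.2% of the monolayer list and 93.8% of the 16 genes of the EHT list. Over all tested genes the shared calls were 43.2% of the monolayer list and 61.5% of the EHT list. RPL13 was called in EHT and not in the monolayer, where its difference was 0.38 (adjusted p = 0.148). By CPM the lists of 4 and 4 had 0 genes in common, where the shared calls of all genes were 48.7% of the monolayer list and 31.5% of the EHT list.

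**Figure D3:**
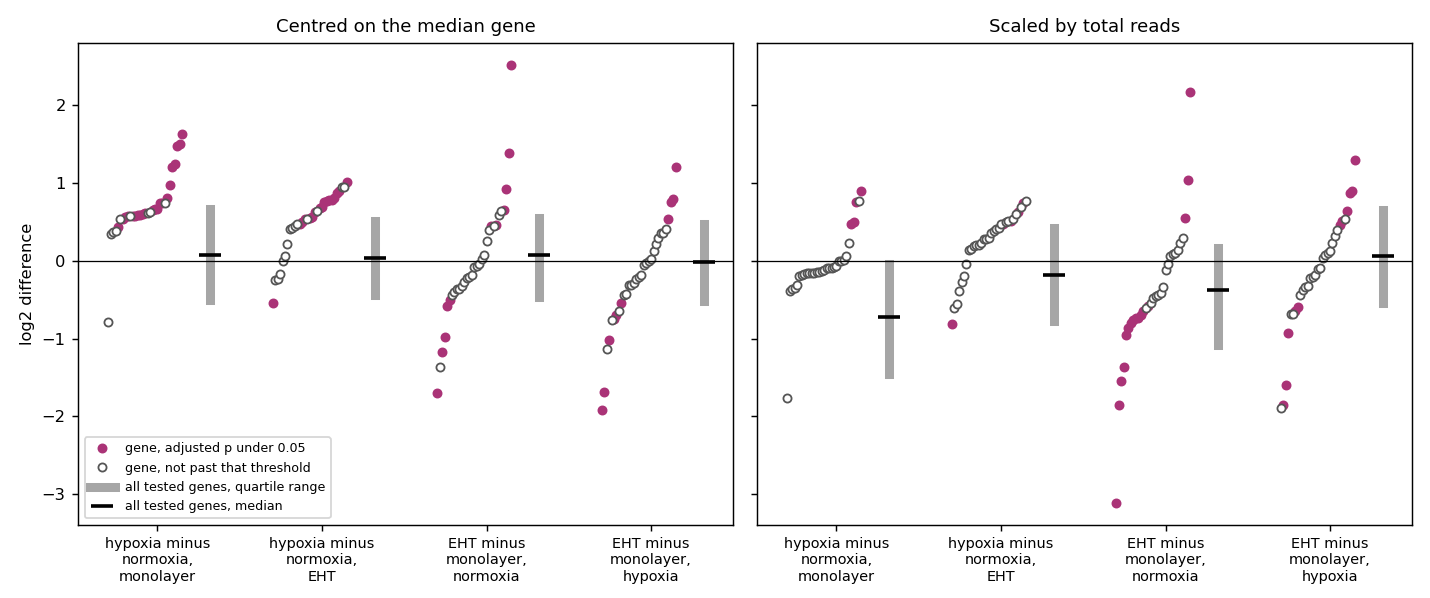
Log2 difference of each of the 31 tested genes in 4 comparisons, centred on the median gene (left) or scaled by total reads (right); filled points have an adjusted p under 0.05 by limma, and the grey bar and dash are the quartile range and median of all 12084 tested genes. In the monolayer the genes lie in a narrow band whose median is 0.61 when centred and -0.12 by CPM, above the median of all genes in each case.

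The cultures were then compared in their response to hypoxia. The difference of the responses (EHT response minus monolayer response, the interaction term) was called for 2 of the 31 genes, RPS27L and RPS19, both lower in EHT, and for 0 in the other direction. Over all tested genes 10.3% were called higher and 14.1% lower, 24.5% in all. By limma at an unadjusted p under 0.05, 4 genes were lower and 0 higher, against 21.0% and 16.0% of all genes. A fit with voom weights called 2 lower and 0 higher, against 13.0% and 11.8%. The median of the 31 was -0.13 when centred and 0.34 by CPM, against -0.08 and 0.50 for all genes, so its sign followed the scaling. Under quantile normalization 6 genes were called higher and 1 lower. On the deposited values without centring 0 were called in either direction, with a median of 0.57 against 0.625 for all genes. The shares of all genes called under these settings are not given here. By CPM RPL7A was called higher (0.82, adjusted p = 0.0324) and RPS27L lower, where the background was 24.0% and 5.67%.

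RPS27L had 631, 647 and 597 CPM in EHT normoxia and 402, 291 and 382 in EHT hypoxia. The hypoxic libraries were all below the normoxic ones, whereas in the monolayer they were all above. In EHT the centred difference was -0.54 ± 0.148 (adjusted p = 0.0132), and -0.81 by CPM (adjusted p = 0.000669). The centred call ended without EHT normoxia replicate 1 (adjusted p = 0.0524), EHT normoxia replicate 2 (0.0533) or EHT hypoxia replicate 2 (0.0638), and in a fit to the EHT libraries alone (0.0503). The interaction was -2.17 ± 0.21 (adjusted p = 6.16e-05), and -1.71 by CPM (adjusted p = 0.000129). It passed the threshold with each library left out in turn and fell short on the deposited values without centring (-1.46, adjusted p = 0.166).

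RPS19 had 1053, 957 and 1149 CPM in EHT normoxia and 1241, 1148 and 1290 in EHT hypoxia, which overlap slightly. Its interaction was -0.75 ± 0.201 when centred (adjusted p = 0.0174). By CPM it was -0.28 (adjusted p = 0.301), under quantile normalization it was 0.15, and without monolayer hypoxia replicate 2 it was -0.68 (adjusted p = 0.0514).

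When EHT was compared with the monolayer in normoxia, calls went both ways on the centred scale: 6 rose in EHT and 5 fell, together 35.5% of the 31, where 41.2% of all genes were called (22.8% higher and 18.5% lower). The median was -0.08 for the 31 and 0.07 for all genes, and the range between quartiles was 0.83 against 1.02. Groups were apart for 7 genes upward and 9 downward, against 31.1% and 24.4% of all genes. By CPM 3 rose and 13 fell, where 10.6% of all genes were higher and 34.4% lower, and the median was -0.48 against -0.38. Under quantile normalization 6 rose and 15 fell (median -0.53). On the deposited values without centring 1 rose and 6 fell, with a median of -0.81 against -0.66 for all genes. The shares of all genes called under these settings are not given here. Without monolayer normoxia replicate 1 the count of genes that fell was 10. It was 2 without monolayer normoxia replicate 3 or without EHT normoxia replicate 1, and 3 without EHT normoxia replicate 2.

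Higher in EHT were RPS27L by 2.52 ± 0.148 (adjusted p = 3.93e-07; 2.17 by CPM), RPL22L1 by 1.39 ± 0.213 (adjusted p = 0.000255; 1.04 by CPM) and RPS21, a small-subunit protein, by 0.92 ± 0.197 (adjusted p = 0.00278; 0.55 by CPM). These 3 passed under both scalings. RPL22L1 had 323, 238 and 293 CPM in EHT normoxia against 130 to 152 in monolayer normoxia. RPS21 had 303, 279 and 305 against 139, 244 and 241. RPLP1 (0.66 ± 0.168, adjusted p = 0.00774), RPS19 (0.46 ± 0.142, adjusted p = 0.0205) and RPL26L1 (0.44 ± 0.14, adjusted p = 0.0226) were called when centred and not by CPM, where they were at 0.29, 0.09 and 0.06. On the deposited values without centring their sign was negative (-0.08, -0.28 and -0.29), and RPS19 was at -0.13 under quantile normalization. The RPS19 call ended without monolayer normoxia replicate 1 (adjusted p = 0.0693) or EHT normoxia replicate 1 (0.0733). The RPL26L1 call ended without monolayer normoxia replicate 2 (0.0715), EHT normoxia replicate 1 (0.0954) or EHT normoxia replicate 3 (0.0525).

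Lower in EHT were RPL15, RPS3A, RPL34, RPL9 and RPS3. RPL15, of the large subunit, had 336, 500 and 508 CPM in monolayer normoxia and 206, 161 and 153 in EHT normoxia. Its difference was -0.98 ± 0.198 (adjusted p = 0.00189; -1.36 by CPM), a call that each alternative retained. RPS3A, a small-subunit protein at the mRNA exit side, had 392, 578 and 580 in monolayer normoxia and 124, 197 and 213 in EHT normoxia. It fell by 1.17 on the centred scale (SE 0.324, adjusted p = 0.0119; -1.55 by CPM), and the call ended without EHT normoxia replicate 1 (-0.97, adjusted p = 0.0557). RPL34 (-1.70 ± 0.521, adjusted p = 0.0201) rested on few reads: 136, 52 and 233 in monolayer normoxia against 3, 10 and 20 in EHT normoxia. Its call ended without monolayer normoxia replicate 3 (adjusted p = 0.094) or EHT normoxia replicate 1 (0.078).

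RPL9 (-0.59 ± 0.171, adjusted p = 0.0153) and RPS3 (-0.50 ± 0.164, adjusted p = 0.0266) fell by less. RPL9 lost its call without monolayer normoxia replicate 3 (adjusted p = 0.0574) or EHT normoxia replicate 2 (0.0676). RPS3, which lines the entry channel of the messenger RNA, lost its call without monolayer normoxia replicate 2 (0.0957), monolayer normoxia replicate 3 (0.0839), EHT normoxia replicate 1 (0.0699) or EHT normoxia replicate 2 (0.0824). RPLP0 (0.25, adjusted p = 0.285), RPSA (-0.21, adjusted p = 0.322), RPL7 (-0.37, adjusted p = 0.0716) and RPS27 (-0.22, adjusted p = 0.577) did not pass. By CPM RPSA (-0.58, adjusted p = 0.0102) and RPL7 (-0.74, adjusted p = 0.00269) fell.

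**Figure D4:**
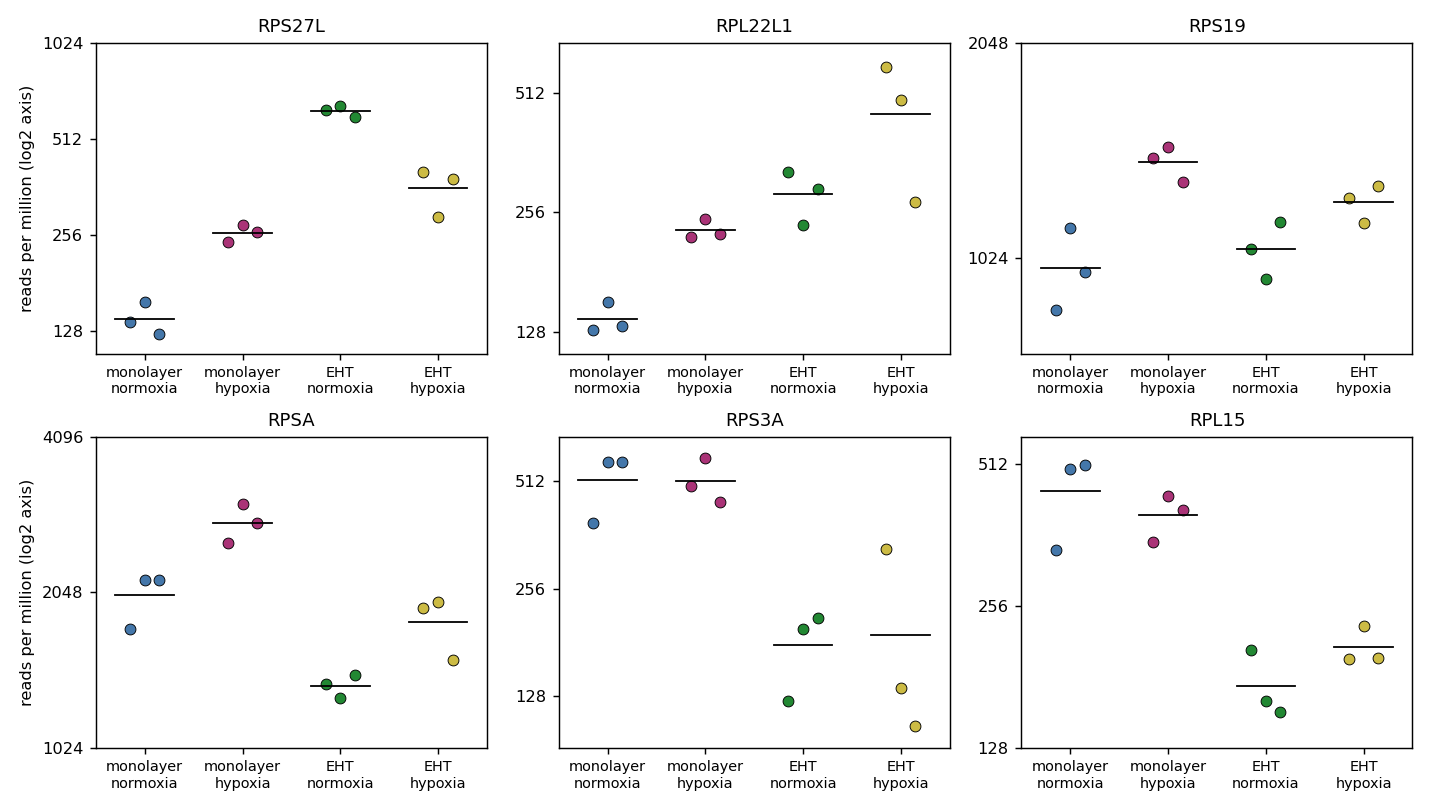
CPM (log2 axis) of 6 ribosomal protein genes in each library; points are libraries and bars are group means of 3. RPS27L and RPL22L1 are lowest in monolayer normoxia, RPS19 and RPSA are highest in monolayer hypoxia, and RPS3A and RPL15 are lower in each EHT library than in any monolayer library.

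When the cultures were compared after hypoxia, the calls were again near the background: 4 rose in EHT and 6 fell, 32.3% of the 31 genes, where 38.1% of all genes were called (18.4% higher and 19.7% lower). The median was -0.21 for the 31 and -0.02 for all genes. Groups were apart for 5 genes upward and 12 downward, against 24.4% and 26.4% of all genes. By CPM 6 rose and 5 fell, where 22.0% of all genes were higher and 16.7% lower, with a median of -0.11 against 0.06. Under quantile normalization the median of the 31 was 0.02. The count of genes that rose was 2 without EHT hypoxia replicate 1 or without monolayer hypoxia replicate 3.

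RPS3A was lower by the most among genes whose groups were apart. It had 497, 593 and 449 CPM in monolayer hypoxia and 332, 135 and 106 in EHT hypoxia, and fell by 1.69 on the centred scale (SE 0.324, adjusted p = 0.00158; -1.60 by CPM). RPL15 had 349, 437 and 407 against 197, 231 and 198, and fell by 1.02 (SE 0.198, adjusted p = 0.0017; -0.93 by CPM). RPSA (-0.74 ± 0.161, adjusted p = 0.00329) and RPL7 (-0.70 ± 0.153, adjusted p = 0.00364) also fell under both scalings. RPS24 fell by 1.92 (SE 0.545, adjusted p = 0.0151), with overlapping groups: its EHT hypoxia libraries had 32.3, 69.4 and 24.9 CPM against 48.0, 319 and 176. RPL37A fell by 0.54 (SE 0.183, adjusted p = 0.0326). Its call ended by CPM (adjusted p = 0.0618), under quantile normalization (-0.26, adjusted p = 0.258), and without either of EHT hypoxia replicates 1 (0.0643) and 2 (0.0746) or monolayer hypoxia replicates 2 (0.114) and 3 (0.103).

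RPL36, a small protein of the large subunit, rose by 1.20 ± 0.351 (adjusted p = 0.0176; 1.30 by CPM). It had 658, 308 and 224 CPM in EHT hypoxia against 165, 156 and 117 in monolayer hypoxia, and EHT hypoxia replicate 1 stood far above the rest. Without that library its difference was 0.79 (adjusted p = 0.0666), and without monolayer hypoxia replicate 3 it was 1.04 (adjusted p = 0.0722). RPL22L1 (0.79 ± 0.213, adjusted p = 0.0112) and RPS21 (0.76 ± 0.197, adjusted p = 0.00929) rose under both scalings. RPS15, a small-subunit protein near the decoding site, rose by 0.53 ± 0.173 (adjusted p = 0.0277). Its call ended without EHT hypoxia replicate 1 (0.0764) or 2 (0.0939) and without monolayer hypoxia replicate 1 (0.0546) or 3 (0.116). RPS27L was at 0.35 (adjusted p = 0.0776), and at 0.46 by CPM, where it passed (adjusted p = 0.0209). It also passed when centred without EHT hypoxia replicate 2 (0.50, adjusted p = 0.0209). RPLP1 was not called when centred, but passed by CPM (0.51, adjusted p = 0.0356) and under quantile normalization (0.52, adjusted p = 0.0493). Among other alternatives it passed with array weights (0.43, adjusted p = 0.0265) and in a fit to the compared groups alone (0.41, adjusted p = 0.047).

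The comparisons of culture used different libraries, so their values stand side by side: RPL15 was at -0.98 in normoxia and -1.02 in hypoxia, RPS3A at -1.17 and -1.69, RPL22L1 at 1.39 and 0.79, RPS21 at 0.92 and 0.76, and RPS27L at 2.52 and 0.35. Of these genes, RPS27L alone was called in the interaction.

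For 3 of the 6 second copies the reads allowed tests. The ratio of RPS27L reads to RPS27 reads in a library does not depend on the scaling. RPS27 had fewer reads than RPS27L in each library, and how reads that match several places were counted is not given. The ratio is thus one of counted reads and need not be that of the messenger RNAs. Its log2 value was 0.50, 0.63 and 0.22 in monolayer normoxia, 1.49, 1.29 and 1.64 in monolayer hypoxia, 2.89, 3.43 and 3.39 in EHT normoxia, and 2.75, 1.60 and 3.50 in EHT hypoxia. In normoxia the cultures were far apart. In hypoxia EHT replicate 2 lay within the monolayer range. Averaged over oxygen, the ratio was 1.96 log2 units (3.90-fold) higher in EHT than in monolayer, in an exact two-sided permutation test of culture labels within each oxygen condition (p = 0.01 over 400 arrangements, of which the smallest possible p is 0.005). Adjusted over the 2 ratio tests it was 0.02. The contrast of hypoxia with normoxia was 0.20 (exact permutation p = 0.62), with higher ratios in hypoxia in the monolayer and no such separation in EHT. RPS27 had 149 to 1149 reads per library and passed the limma threshold in no comparison; its nearest was -0.77 in EHT against monolayer in hypoxia (adjusted p = 0.0527), which reached 0.00523 without EHT hypoxia replicate 2, 0.0496 without EHT normoxia replicate 1 and 0.0388 with the replicate block. In the monolayer its difference in hypoxia was 0.61 (adjusted p = 0.101), which reached 0.00673 in a fit to the monolayer libraries alone, 0.0212 with array weights, 0.0384 without EHT hypoxia replicate 2, 0.0286 without EHT hypoxia replicate 3 and 0.0354 with monolayer normoxia replicate 3 and EHT hypoxia replicate 3 both left out. No other pair of the 8 considered had reads for both genes.

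RPL22L1 had 597, 491 and 271 CPM in EHT hypoxia, which together with the values above puts the groups in the order monolayer normoxia, monolayer hypoxia, EHT normoxia and EHT hypoxia by their means. By CPM, EHT normoxia and EHT hypoxia overlap, as do monolayer hypoxia and EHT normoxia. On the centred scale the means of monolayer hypoxia and EHT normoxia were 3.56 and 3.48, the reverse of their order by CPM. RPL26L1 had 25.3 to 37.8 CPM over the 12 libraries. It was called in monolayer hypoxia when centred (0.43, adjusted p = 0.0225), with a difference of -0.31 by CPM. That call ended without monolayer normoxia replicate 2 (0.0701) or monolayer hypoxia replicate 2 (0.0844). RPL26L1 is close in sequence to RPL26, so reads of either gene could have been assigned to the other.

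**Figure D5:**
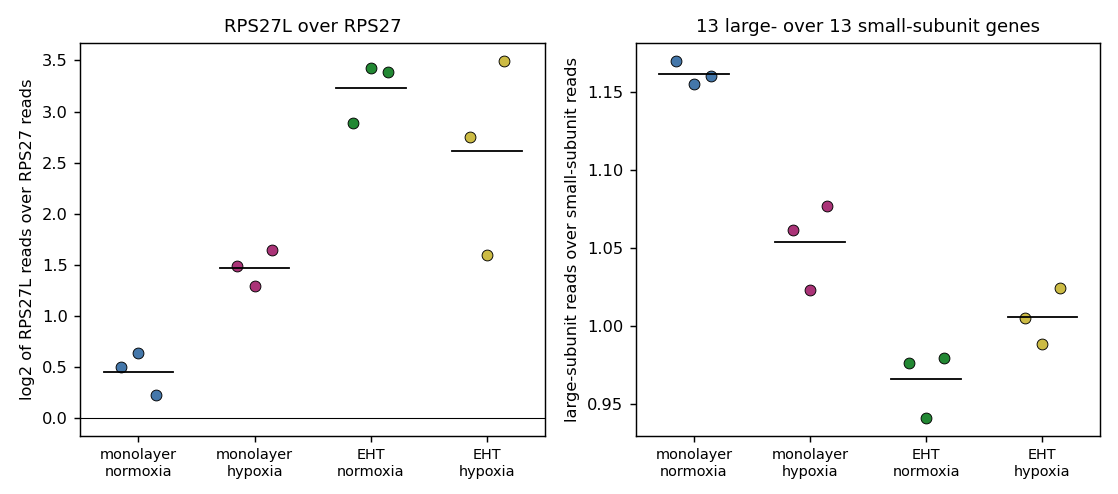
Ratios that do not depend on scaling, per library (points) with group means of 3 (bars): log2 of RPS27L reads over RPS27 reads (left) and reads of 13 large-subunit genes over reads of 13 small-subunit genes (right). RPS27L over RPS27 is lowest in monolayer normoxia (0.22 to 0.63), and large over small falls from 1.16 there to 0.966 in EHT normoxia.

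The balance of the subunits was described next. Reads of the 13 tested standard large-subunit genes over those of the 13 tested small-subunit genes gave 1.17, 1.16 and 1.16 in monolayer normoxia and 1.06, 1.02 and 1.08 in monolayer hypoxia. In EHT the ratio was 0.976, 0.941 and 0.979 in normoxia and 1.01, 0.988 and 1.02 in hypoxia. The means were 1.16 ± 0.00774, 1.05 ± 0.0279, 0.966 ± 0.0214 and 1.01 ± 0.018 (SD, n = 3). Monolayer normoxia was above the other 9 libraries and EHT normoxia below them, while the hypoxia groups lay between and touched. This ratio was added after the values had been seen, is led by the genes with most reads, and was not tested.

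Genes differed in how far they varied together. Over the 12 libraries the centred value of RPL35 had a Pearson r of 0.97 with the mean of the other tested genes, RPS9 0.96, RPSA 0.93 and RPL10A 0.92. At the other end were RPL34 (-0.11), RPL14 (0.10), RPS27L (0.11), RPL36 (0.38) and RPS21 (0.39). These are descriptions, since the libraries share a centring and the groups themselves set much of the variation. RPL14 and RPL34 had few reads, whereas RPS27L had 985 to 5606 per library. Within groups, RPS24 varied most, with a pooled SD of 0.83, followed by RPL34 with 0.73. RPS24 had an SD of 1.42 in monolayer hypoxia, where its reads were 339, 3258 and 1534. RPL26L1 (0.11) and RPS19 (0.14) varied least.

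Of the rest of the pathway, translation factors and other TOP messenger RNAs had 29 genes tested. The counts of this and the following lists stand against the shares of all tested genes given above: for hypoxia in the monolayer 27.8% higher and 18.6% lower (by CPM 8.81% and 47.6%), and for hypoxia in EHT 19.5% and 16.0% (by CPM 13.6% and 24.7%). For EHT against monolayer these shares were 22.8% and 18.5% in normoxia (by CPM 10.6% and 34.4%), and 18.4% and 19.7% in hypoxia (by CPM 22.0% and 16.7%). In the monolayer 21 rose in hypoxia and 2 fell (median 0.69), and in EHT 18 rose and 2 fell (0.53). By CPM the counts were 5 and 7 in the monolayer (median -0.04) and 10 and 5 in EHT (0.29). Examples in the monolayer were EIF3A, a scaffold of initiation factor eIF3 (1.15 ± 0.136, adjusted p = 2.87e-05), which also rose by CPM (0.42, adjusted p = 0.0191), and EIF4G1, the scaffold of the cap-binding complex, which fell by 0.86 (SE 0.239, adjusted p = 0.0105). In EHT EIF4B, a helicase cofactor, rose by 1.83 (SE 0.282, adjusted p = 0.000357). In EHT against monolayer 3 rose and 3 fell in normoxia, and 3 rose and 7 fell in hypoxia; by CPM these were 3 and 14, and 5 and 5. PABPC1, the poly(A)-binding protein, was higher in EHT in both (1.21 and 1.18). The 3 tested ribosomal proteins outside the symbol rule included GNB2L1, also called RACK1, a signalling scaffold on the small subunit. Of the 3, 2 rose in hypoxia in the monolayer and 3 in EHT when centred, and 0 by CPM. None was called in EHT against monolayer when centred.

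Ribosome biogenesis factors, which assemble the subunits in the nucleolus, had 56 genes tested. In hypoxia 10 rose and 21 fell in the monolayer (median -0.16), and 12 rose and 17 fell in EHT (-0.11). By CPM 2 rose and 43 fell in the monolayer, and 5 rose and 24 fell in EHT. NOP56, a core protein of box C/D particles, fell by 1.33 in the monolayer (SE 0.136, adjusted p = 9.1e-06), and NOLC1 fell by 1.39 (SE 0.167, adjusted p = 3.19e-05). In EHT RRS1, which helps load the 5S particle, fell by 2.26 (SE 0.279, adjusted p = 7.16e-05), and the nucleolar protein NPM1 rose by 1.44 (SE 0.223, adjusted p = 0.000362). In EHT against monolayer 10 rose and 3 fell in normoxia, and 15 rose and 7 fell in hypoxia, which by CPM were 0 and 14, and 17 and 4. RNA polymerase I genes, which transcribe ribosomal RNA, had 19 tested. In hypoxia 2 rose and 4 fell in the monolayer, and 3 rose and 7 fell in EHT, which by CPM were 0 and 13, and 2 and 9. Its largest subunit POLR1A fell by 0.72 in the monolayer (SE 0.143, adjusted p = 0.0013) and by 1.08 in EHT (SE 0.143, adjusted p = 0.00012). Between the cultures, 4 rose in EHT and 1 fell in normoxia, and 3 rose and 3 fell in hypoxia, which by CPM were 2 and 5, and 3 and 2. Of 8 chaperones and modifiers of ribosomal proteins, 1 rose and 3 fell in the monolayer and 0 rose and 2 fell in EHT, which by CPM were 0 and 7, and 0 and 4. HEATR3, which helps carry RPL5 to the nucleus, fell by 1.54 in the monolayer (SE 0.211, adjusted p = 8.46e-05) and by 0.98 in EHT (SE 0.211, adjusted p = 0.00327). Between the cultures, 2 of the 8 rose in EHT and 0 fell in each oxygen condition, which by CPM were 0 and 1 in normoxia, and 2 and 0 in hypoxia.

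Genes of the mTOR pathway and of MYC had 26 tested. In hypoxia 15 rose and 7 fell in the monolayer, and 10 rose and 4 fell in EHT; by CPM these were 6 and 10, and 7 and 7. DDIT4, a hypoxia-induced inhibitor of mTOR complex 1, rose by 3.24 ± 0.279 in the monolayer (adjusted p = 2.94e-06) and by 3.65 ± 0.279 in EHT (adjusted p = 1.87e-06). MXI1, an antagonist of MYC, rose by 3.47 ± 0.232 (adjusted p = 3.82e-07) and 3.06 ± 0.232 (adjusted p = 1.76e-06). By CPM these 4 differences ran from 2.52 to 3.43. MTOR itself fell by 1.62 in EHT (SE 0.229, adjusted p = 0.00019). In EHT against monolayer 8 rose and 4 fell in normoxia and 5 rose and 6 fell in hypoxia, which by CPM were 4 and 8, and 7 and 4. The mitochondrial ribosomal protein genes, which serve the ribosome inside mitochondria, had 55 of 58 tested. In hypoxia 16 rose and 7 fell in the monolayer (median 0.04), and 3 rose and 16 fell in EHT (-0.20). By CPM 1 rose and 35 fell, and 2 rose and 25 fell. In EHT against monolayer 11 of the 55 rose and 2 fell in normoxia, where 22.8% and 18.5% of all genes were called, and 4 rose and 9 fell in hypoxia, where these shares were 18.4% and 19.7%. By CPM the counts were 0 and 7, and 7 and 6.

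Markers of other cells moved with the groups. Epithelial markers (8 tested, such as EPCAM and CLDN4) took 0.43% of reads in monolayer normoxia, 0.0115% in monolayer hypoxia, 0.00124% in EHT normoxia and 0.011% in EHT hypoxia. In monolayer normoxia they ranged from 0.176% to 0.89% and were highest in replicate 1, which had the lowest share of ribosomal protein reads in that group. In EHT hypoxia the library with the lowest ribosomal protein share, replicate 3, also had the lowest epithelial share (0.00154%). Of the 8, 7 fell in hypoxia in the monolayer and 7 were lower in EHT in normoxia. Of the 19 proliferation genes 17 were lower in EHT in normoxia and 1 higher, and 7 fell and 1 rose in hypoxia in the monolayer, and their share of reads was 0.176%, 0.0734%, 0.0635% and 0.0535% in group order. Of the 12 cardiomyocyte markers 10 were lower in EHT in normoxia and 9 in hypoxia, and 6 rose in hypoxia in the monolayer and 2 in EHT. These counts of markers called are on the centred scale. By CPM ACTN2 (limma adjusted p = 0.081) and TNNI1 (0.0733) did not pass for hypoxia in the monolayer. In EHT RYR2 (0.00809) and TNNI1 (0.00848) did. Smooth muscle markers took 0.14% to 0.595% of reads, endothelial markers 0.00425% to 0.0318%, and pluripotency markers at most 0.00279%, as group means. The part of these cells in the ribosomal protein results was not tested.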

How the data were processed

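The deposited table held log2-scale values per gene symbol that the authors made with DESeq2's variance-stabilising transformation, after alignment with HISAT2 and counting with featureCounts, per the submitters' processing notes. The sources used here do not give versions, build or annotation, and no gene positions are printed. The lowest deposited value (3.00) marks 0 reads. Inverting the transformation gave whole reads (within 0.01) for 100% of values in each library, from which reads per 1000000 reads (CPM) were computed. Reads are not independent molecules, so depth covers counting error alone.

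Of 16745 genes, 12084 entered the tests, having a mean that exceeded the lowest value by 1 log2 unit or more. Each library was centred on its median over them. limma 3.58.1 (R 4.3.3) fitted 1 mean per group over the 12 libraries, its variances moderated along a trend with the mean. Each of 5 comparisons had its own Benjamini-Hochberg adjustment, and the threshold was 0.05. Low values understate folds on this scale.

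The named genes were, per comparison, up to 6 per direction with the largest difference among genes called with groups apart, the second copies and their partners, and RPLP0, RPLP1, RPSA and RPS19. From each other list up to 2 genes per direction with the smallest p could be named. Of the genes fixed by name, RPL13A, RPL5, RPL11, RPS6 and RPLP2 had no tested value. RPS24 and the genes named for their correlation or spread (RPL35, RPS9, RPL14) were named after their values were seen. The members, lists and tests were chosen with earlier results of these data known.

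Alternatives were the deposited values without centring, quantile normalization, voom on the recovered reads with median-of-ratios factors, other filters and variance models, array weights, a replicate block, the compared groups alone and each library left out. Scaling by total reads and leaving out 2 libraries were added after the data were seen. Same-numbered libraries did not correlate in every pair (r from -0.10 to 0.33), so numbers were not treated as pairs. The fit was tested on simulated counts. Of the 45 symbols, 44 matched the RefSeq gene list, and RPS3A did not. Some results are not reported here. Figures used matplotlib 3.10.9.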

Additional observations from a re-analysis of the deposited data

Results flagged for a closer look

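The hypoxia response of RPS27L differed between the cultures: the interaction was -2.17 log2 units (limma, adjusted p = 6.16e-05), with all hypoxic libraries above the normoxic ones in the monolayer and all below them in EHT. The response of RPS19 also differed, by -0.746 (adjusted p = 0.0174), with higher centred values in hypoxia in both cultures and the smaller difference in EHT (0.49 against 1.24). By CPM the RPS19 interaction was -0.28 (adjusted p = 0.301).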

How the results depend on the processing

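Counts are of the 31 tested ribosomal protein genes. Shares of all tested genes are given above for the main fit and for scaling by total reads. For the other settings of this section they are not given, so those counts lack a background. Without centring, the deposited values gave 1 higher in EHT against monolayer in normoxia, 0 higher and 2 lower in hypoxia, 0 higher and 1 lower for hypoxia in the monolayer, 0 and 0 for hypoxia in EHT, and 0 lower in the interaction. Quantile normalization gave 15 lower in EHT in normoxia, 4 higher and 2 lower for hypoxia in the monolayer, 5 higher in EHT, and 6 higher and 1 lower in the interaction. Scaling by total reads gave 3 higher and 13 lower in EHT in normoxia, 4 higher for hypoxia in the monolayer and 4 in EHT, and 1 higher and 1 lower in the interaction. Array weights gave 10 lower in EHT in normoxia, and a fit to the compared groups alone gave 0 lower for hypoxia in EHT.

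Signs turned for the median of hypoxia in the monolayer (quantile -0.22, total reads -0.12) and of the interaction (deposited 0.57, quantile 0.37, total reads 0.34). The median of all genes was -0.73 by total reads for hypoxia in the monolayer. For the interaction it was 0.625 on the deposited values and 0.50 by total reads. In EHT against monolayer in normoxia they turned for RPLP1 (deposited -0.081), RPS19 (deposited -0.28, quantile -0.13) and RPL26L1 (deposited -0.29). For hypoxia in the monolayer they turned for RPLP0 (quantile -0.28), RPL7 (quantile -0.37), RPL26L1 (deposited -0.12, total reads -0.31) and RPLP1 (quantile -0.29, total reads -0.089). The RPS19 interaction was 0.15 under quantile normalization. The causes were not tested beyond the construction of each scaling.

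Leaving out 1 library gave 4 to 7 higher and 2 to 10 lower in EHT in normoxia, 2 to 5 higher and 4 to 8 lower in EHT in hypoxia, 11 to 24 higher for hypoxia in the monolayer, 9 to 21 higher and 0 to 1 lower for hypoxia in EHT, and 1 to 3 lower in the interaction. Median differences ran from -0.25 to 0.01, -0.26 to -0.09, 0.46 to 0.72, 0.52 to 0.62 and -0.23 to 0.09 in the same order. With the other ribosomal proteins added, the share of reads in monolayer hypoxia was 3.09% in place of 2.81%. The RPS27L to RPS27 ratio stayed between 1.74 and 2.22 for EHT minus monolayer.

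With the replicate block the counts were 6 higher and 5 lower in EHT in normoxia, 4 and 7 in hypoxia, 21 and 0 for hypoxia in the monolayer, 14 and 1 in EHT, and 0 and 2 in the interaction, which changed no call but those of RPL7 for hypoxia in EHT (adjusted p = 0.0524) and RPS27 in EHT against monolayer in hypoxia (adjusted p = 0.0388) among the named genes. Depth limits the tested genes with few reads, such as RPL14 and RPL34.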
